A study of Homo sapiens with 6 samples.

Results

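The 5 genes described here mark the switch between an epithelial and a mesenchymal cell state. They were chosen by name with their changes in these data already known, as 3 mesenchymal genes, VIM, ZEB1 and SNAI2, set against 2 epithelial adhesion genes, CDH1 and EPCAM. All 5 were found among the 7681 genes of the authors' deposited tables. The study sequenced RNA from 6 untreated cultures of HCT116, a human colorectal carcinoma cell line, each grown for 48 hours in DMEM with fetal bovine serum. Of these, 3 were wild type and 3 were labelled Rab27B KO, HCT116 cells in which RAB27B, a small GTPase of vesicle secretion, was targeted with CRISPR/Cas9. The sources used here do not say whether the edited cells were 1 clone or a pool.

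The deposited values are the authors' own comparison, the log2 ratio of Rab27B KO to wild type and a q-value, which is a p-value corrected for the number of genes tested. Only genes with a q-value below 0.05 are in the tables, and levels per culture were not analysed here, so no spread between the 3 cultures of a group, no depth and no level of any gene can be given. Of a gene in neither table, no change can be stated in either direction. RNA of the targeted gene was higher, not lower, in the cultures labelled Rab27B KO: RAB27B had a log2 fold change of 5.20 per the authors' deposited table. Directions below are therefore those of the cultures labelled Rab27B KO relative to the wild-type cultures. Whether labels and cultures match, or whether the edited gene was still transcribed, was not tested. An exchange of the labels would turn every direction given here. In these bulk cultures, a change in the share of cells of 1 kind and a change in RNA per cell cannot be told apart.

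In epithelial-mesenchymal transition, cells loosen the junctions that hold an epithelial sheet together and take on the shape and movement of mesenchymal cells. The zinc-finger repressors ZEB1 and SNAI2 (Slug) bind E-box motifs in the promoters of epithelial genes, CDH1 above all, and silence them with the help of corepressors. The miR-200 microRNAs in turn repress ZEB1, while factors such as GRHL2 and OVOL1 hold the epithelial state. In colorectal carcinoma, loss of E-cadherin and gain of vimentin are used as signs of this transition at the invasive front.

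The 3 mesenchymal genes were higher and both epithelial genes lower in the cultures labelled Rab27B KO. These values chose the genes and are given as a description. Among all listed genes 50.7% were higher and 49.3% lower, while 6.11% were higher and 6.5% lower by a log2 of 1 or more. Each of the 5 passed that size.

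VIM encodes vimentin, the intermediate filament of mesenchymal cells. It was 8.21-fold higher per the authors' deposited table, or 3.04 on the log2 scale, with q = 9.77e-218. By size it ranked 73rd of the 3898 higher genes per the authors' deposited table and by q-value 25th. VIM (gene ID 7431) lies on the plus strand of chromosome 10, from 17228241 to 17237593 in GRCh38.

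ZEB1 encodes the zinc-finger repressor of epithelial genes. It was 6.66-fold higher per the authors' deposited table, or 2.74 on the log2 scale, with q = 9.85e-93. Its rank by size was 82 of 3898 and its rank by q-value 94 per the authors' deposited table. ZEB1 (gene ID 6935) spans 31318417 to 31529804 on the plus strand of chromosome 10.

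SNAI2, the Snail-family repressor Slug, had the smallest rise of the 3 mesenchymal genes and a far larger q-value. It was 3.76-fold higher per the authors' deposited table, or 1.91 on the log2 scale, with q = 3.68e-06. It ranked 155th by size but 2017th by q-value among the higher genes per the authors' deposited table. Of the 64 other higher genes within a log2 of 0.2 of its change, 47 had a smaller q-value, and their median q-value was 9.45e-19 per the authors' deposited table. SNAI2 (gene ID 6591) lies on the minus strand of chromosome 8, from 48917598 to 48921429.

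CDH1 encodes E-cadherin, the calcium-dependent adhesion molecule of adherens junctions. It was 2.22-fold lower per the authors' deposited table, or -1.15 on the log2 scale, with q = 1.06e-102. EPCAM encodes the epithelial cell adhesion molecule, a surface glycoprotein of most carcinomas. It was 2.23-fold lower per the authors' deposited table, also -1.15 on the log2 scale, with q = 2.78e-184. The changes of both genes were thus nearly equal in size. CDH1 ranked 400th of the 3783 lower genes by size and 33rd by q-value per the authors' deposited table, and EPCAM 395th and 17th. Of the 234 and 230 other lower genes within a log2 of 0.2 of CDH1 and EPCAM, 226 and 228 had larger q-values per the authors' deposited table. CDH1 (gene ID 999) spans 68737292 to 68835537 on the plus strand of chromosome 16, and EPCAM (gene ID 4072) 47369311 to 47387020 on the plus strand of chromosome 2.

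**Figure D1:**
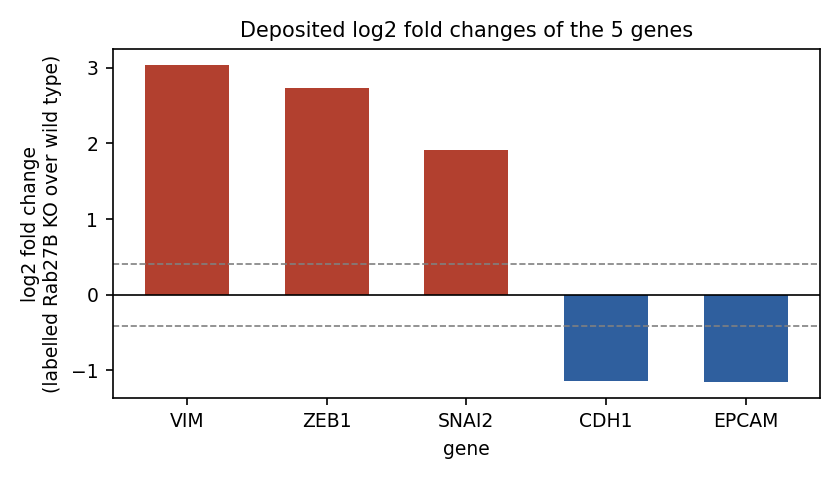
Deposited log2 fold change of each of the 5 genes (y axis, cultures labelled Rab27B KO over wild type; 1 bar per gene, no error available). The dashed lines are the medians of all higher genes (0.41) and all lower genes (-0.41), and every bar passes the line on its side.

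The falls of both epithelial genes were smaller on the log2 scale than the rises of the 3 mesenchymal genes, with SNAI2 the nearest to them in size. The ratio of VIM to CDH1 RNA moved 18.2-fold and that of VIM to EPCAM 18.3-fold, as computed from the authors' deposited table. The same ratios for ZEB1 moved 14.8-fold with either epithelial gene, and those for SNAI2 8.32-fold with CDH1 and 8.36-fold with EPCAM, from the authors' deposited table. No error can be put on these ratios.

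**Figure D2:**
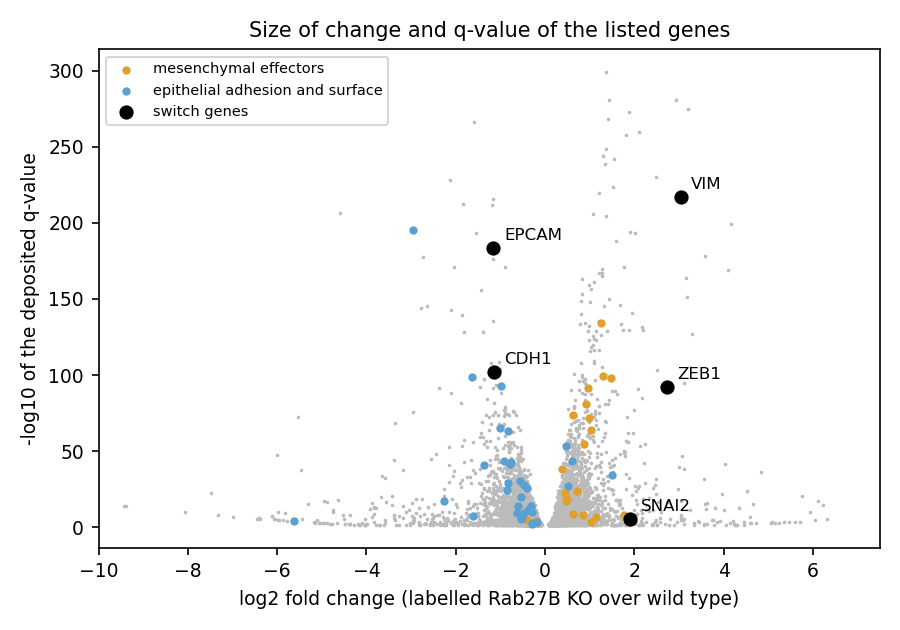
Log2 fold change (x axis, cultures labelled Rab27B KO over wild type) against the negative log10 of the deposited q-value (y axis) for the listed genes whose q-value is above 0. Grey points are all such genes, orange points the mesenchymal effectors, blue points the epithelial adhesion and surface genes and black points the 5 switch genes. VIM and EPCAM stand high on either side, whereas SNAI2 lies near the base.

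The start of ZEB1 and VIM was examined for the letters that ZEB1 and the Snail family bind. Of the 5 genes, 2 matched the RefSeq promoter table (GRCh38.p14): VIM with 1 start and ZEB1 with 7. CDH1, EPCAM and SNAI2 had no entry there, so no promoter of either epithelial gene was searched. The 250 bases before each start were searched for CAGGTG and for CACCTG, its reverse complement, so that both strands were covered. These letters are a subset of the general E-box CANNTG. The windows before the VIM start and before the first ZEB1 start are shown because both genes rose. E-box letters are in capitals, and both strands are plus.
VIM, chr10:17227991-17228240: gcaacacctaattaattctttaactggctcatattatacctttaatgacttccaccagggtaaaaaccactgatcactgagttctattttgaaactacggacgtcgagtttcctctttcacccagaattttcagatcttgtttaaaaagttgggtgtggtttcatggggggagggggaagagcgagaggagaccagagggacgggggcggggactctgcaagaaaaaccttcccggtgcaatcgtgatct
ZEB1, chr10:31318167-31318416: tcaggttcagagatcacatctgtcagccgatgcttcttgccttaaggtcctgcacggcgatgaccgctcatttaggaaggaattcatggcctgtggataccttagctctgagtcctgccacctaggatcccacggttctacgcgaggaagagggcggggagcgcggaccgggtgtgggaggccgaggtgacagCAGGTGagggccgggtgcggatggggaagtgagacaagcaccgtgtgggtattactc
The VIM window held no match to CAGGTG or CACCTG, nor to CANNTG. The first ZEB1 window held 1 match, 57 bases before the start. Over its 7 windows ZEB1 had 3 such matches, in 2 windows. Among all 35116 promoter windows in the table, 17.5% held CAGGTG or CACCTG and 61.8% held CANNTG. A match is a run of letters and was not measured as a binding site here.

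ZEB1 RNA also carries matches to the miR-200 family, which was not measured in these tables. The 5 family members fall into a pair of seed groups, and 1 mature sequence of each is shown with its seed, bases 2 to 8, in capitals (RefSeq, GRCh38.p14).
hsa-miR-200c-3p: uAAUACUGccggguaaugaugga
hsa-miR-200a-3p: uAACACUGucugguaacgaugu
The seed of miR-200c-3p is shared by miR-200b-3p and miR-429, and that of miR-200a-3p by miR-141-3p. In the longest protein-coding ZEB1 transcript of GENCODE release 29 (GRCh38), the 2549-base 3′ UTR held 6 matches to the first seed and 3 to the second. A site for each seed is shown, with the letters that pair with the seed in capitals and, at their right, an a that stands opposite the first base of the microRNA.
ZEB1 site for the miR-200c-3p seed, chr10:31528507-31528513: atttttacctatCAGTATTattttatt
ZEB1 site for the miR-200a-3p seed, chr10:31528797-31528803: gatttgatttaaCAGTGTTatgttaac
The 322-base VIM 3′ UTR held 0 matches to either seed. Of 19550 genes, 27.3% had at least 1 match in the 3′ UTR and 5 others had at least as many as ZEB1. Among the 2480 genes whose 3′ UTR was 80 to 125% as long as that of ZEB1, 0 had as many.

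The other transcription factors that drive the transition were listed at a share near that of all protein-coding genes. Of 13 such factors 4 were listed, 2 higher and 2 lower, so that the share listed was 30.8%, beside 37.9% of all RefSeq protein-coding genes. How many genes the authors tested is not known. SNAI1 (Snail), the paralog of SNAI2, was 1.58-fold higher (q = 3.03e-15) per the authors' deposited table. TWIST1, a basic helix-loop-helix factor, was 1.66-fold higher with a q-value of only 0.0315 per the authors' deposited table. TCF3, which encodes the E-box binding E2A proteins, and the forkhead gene FOXQ1 stood at log2 fold changes of -0.16 and -0.60 per the authors' deposited table. ZEB2, the paralog of ZEB1, TWIST2, PRRX1 and 6 further factors were in neither table. None of the 4 listed factors reached a log2 change of 1, a size that 12.6% of all listed genes reached. ZEB1 and SNAI2 did reach it, but they were chosen with their changes known.

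Factors that hold the epithelial state were mostly lower. Of 15 such genes 13 were listed (86.7%, beside 37.9% of all protein-coding genes), 9 lower and 4 higher. Their median log2 fold change was -1.01 beside 0.12 over all listed genes, of which 49.3% were lower. This list, like the other related lists, was chosen with earlier results of these data known. GRHL2, a grainyhead factor that activates CDH1 and represses ZEB1, was 24.2-fold lower (q = 2.21e-207) per the authors' deposited table. GRHL3 was 5.20-fold lower and OVOL1, a zinc-finger repressor of ZEB1, 4.47-fold lower per the authors' deposited table. The ETS factors ELF5, EHF and ELF3 were 3.87-fold, 2.24-fold and 1.42-fold lower per the authors' deposited table. The q-value of ELF5 was only 3.18e-03, beside 7.24e-92 for EHF and 3.71e-19 for ELF3 per the authors' deposited table. ESRP1, which directs epithelial splicing, was 2.13-fold lower and its paralog ESRP2 1.17-fold higher per the authors' deposited table. The gut factor CDX2 was 1.68-fold and the pioneer factor FOXA1 2.02-fold lower per the authors' deposited table. The other higher genes were FOXA2 at 5.62-fold, KLF4 at 4.51-fold and KLF5 at 1.18-fold per the authors' deposited table. GRHL1 and OVOL2 were in neither table. By size, 7 of the 13 were lower and 2 higher by a log2 of 1 or more.

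The epithelial adhesion, polarity and surface genes that were listed were mostly lower. Of 48 genes in this list 36 were listed (75.0%, beside 37.9% of all protein-coding genes), 32 lower and 4 higher. The median log2 fold change was -0.61, and over all listed genes 49.3% were lower. The list was chosen with earlier results of these data known, so these counts are a description. Their lower genes lay on 12 chromosomes. The largest falls were in PRR15L, with a log2 fold change of -5.63 but a q-value of only 1.56e-04 per the authors' deposited table, and EPN3, an epsin of endocytosis, at -2.97. AP1M2, the epithelial subunit of the AP-1 sorting adaptor, was 7.49-fold lower and MAL2, a protein of apical transport, 5.04-fold lower per the authors' deposited table, both with q-values listed as 0. The membrane protease ST14 (matriptase) was 3.44-fold lower per the authors' deposited table. Among genes of tight junctions, MARVELD3 was 2.58-fold, CLDN7 1.78-fold, CGN 1.54-fold, TJP1 1.39-fold, CLDN4 1.23-fold and CLDN3 1.22-fold lower per the authors' deposited table. The polarity genes PATJ and CRB3 were 1.51-fold and 1.44-fold lower per the authors' deposited table, while PARD6B and LLGL2 were in neither table. CDH3 (P-cadherin), whose start lies 92.0 kb before that of CDH1, was 1.33-fold lower per the authors' deposited table. The 4 higher genes were TSPAN1 at 2.85-fold and the simple-epithelium keratins KRT8, KRT19 and KRT18 at 1.53-fold, 1.43-fold and 1.39-fold per the authors' deposited table. OCLN and CLDN1, both of tight junctions, MUC1 and 7 further genes were in neither table. Most of these changes were smaller than that of CDH1: 10 of the 36 genes were lower and 1 higher by a log2 of 1 or more.

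**Figure D3:**
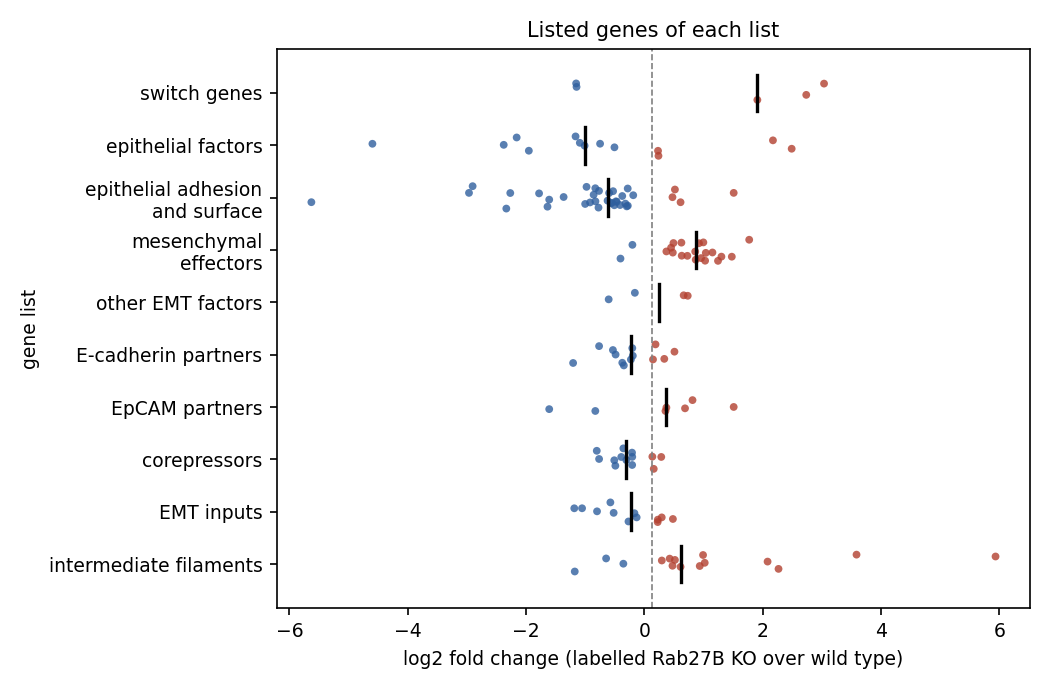
Log2 fold change (x axis, cultures labelled Rab27B KO over wild type) of every listed gene of each list (rows). Red points are higher and blue points lower, the black bar is the median of the list's listed genes, and the dashed line is the median of all listed genes (0.12). Epithelial adhesion and surface genes lie mostly left of 0 and mesenchymal effectors mostly right.

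The promoters of the lower epithelial genes held CAGGTG or CACCTG often. Of the 32 lower genes 18 matched the promoter table, and 12 of these 18 (66.7%) held these letters within 250 bases before a start, beside 20.6% of all 27305 genes in the table and 22.8% of all lower genes with a promoter. Counted by promoter window, 12 of 24 windows held them, beside 17.5% of all windows. With the higher epithelial genes included it was 12 of 20 genes. The other lists were counted over their listed genes with a promoter. Of these, 2 of 13 mesenchymal effectors, 2 of 12 corepressors, 3 of 12 inducers and 2 of 8 intermediate filament genes held the letters. For epithelial factors it was 3 of 8, for E-cadherin partners 4 of 10 and for other transition factors 0 of 2. For regulators of Snail and ZEB protein stability it was 3 of 7. For EpCAM partners, a list with more higher than lower genes that shares members with the epithelial list, it was 4 of 6. The epithelial list was written to include known targets of ZEB1 and the Snail family, so its share is not independent of the motif. The window of RAB25, a Rab GTPase of epithelial recycling endosomes that was 1.70-fold lower per the authors' deposited table, is shown whole, and 30-base stretches of other genes are shown for the closest pairs of matches and for CRB3, which had the most.
RAB25, chr1:156060910-156061159, plus strand: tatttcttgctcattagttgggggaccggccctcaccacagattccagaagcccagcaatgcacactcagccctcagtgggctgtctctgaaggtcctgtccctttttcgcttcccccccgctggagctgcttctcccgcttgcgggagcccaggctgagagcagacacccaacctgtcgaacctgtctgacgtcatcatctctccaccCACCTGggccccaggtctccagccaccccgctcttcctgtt
AP1M2, chr19:10587322-10587351, minus strand: ttaagacgcacaCACCTGggctctCACCTG
CLDN7, chr17:7262481-7262510, minus strand: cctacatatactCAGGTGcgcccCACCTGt
CRB3, chr19:6464199-6464228, plus strand: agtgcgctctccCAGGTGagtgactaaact
Each is written in the direction of transcription, with E-box letters in capitals. The RAB25 match began 41 bases before the start. AP1M2 had 3 matches, 57, 27 and 15 bases before its start, CLDN7 had 4 and CRB3 had 5.

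**Figure D4:**
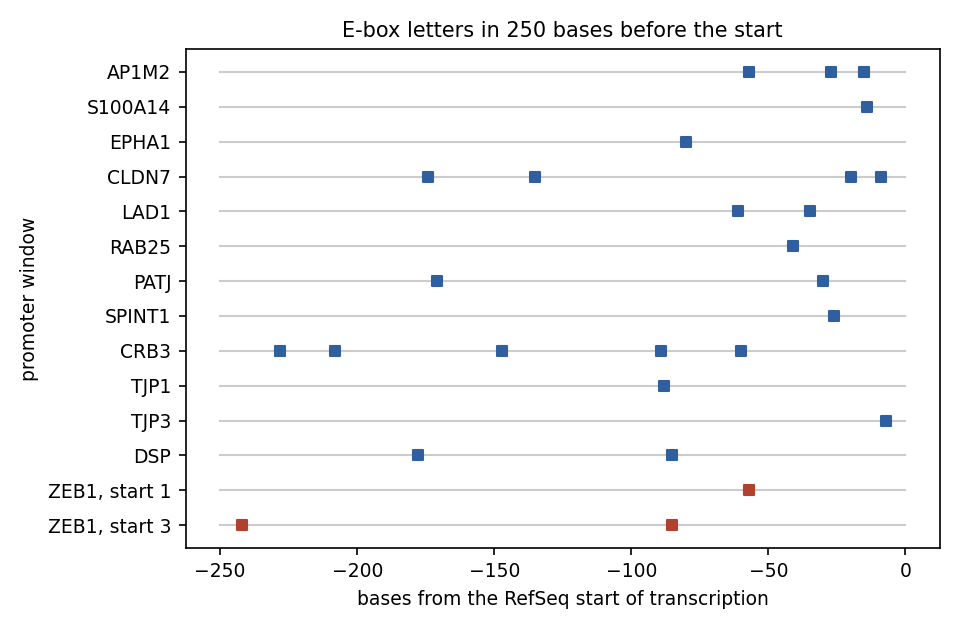
Positions of CAGGTG or CACCTG (squares) in the 250 bases before the start of transcription (x axis, bases from the start) for each promoter window that held a match, 1 row per window. Blue squares belong to epithelial genes that were lower and red squares to ZEB1, which was higher. Most rows have a match within 60 bases of the start, among them AP1M2, CLDN7, RAB25 and the first start of ZEB1. DSP, EPHA1 and TJP1 have none that close.

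The mesenchymal effector genes that were listed were mostly higher. Of 44 genes 21 were listed (47.7%, beside 37.9% of all protein-coding genes), 19 higher and 2 lower. The median log2 fold change was 0.87, and over all listed genes 50.7% were higher. This list too was chosen with earlier results of these data known, and its counts are a description. Their higher genes lay on 13 chromosomes. The collagen gene COL3A1 was 3.41-fold higher, with q = 6.57e-09 per the authors' deposited table. LOXL2, which cross-links collagen, was 2.47-fold and the matrix proteoglycan gene VCAN 2.37-fold higher per the authors' deposited table. ITGA5, the fibronectin receptor subunit, was 1.94-fold and its ligand gene FN1 1.82-fold higher per the authors' deposited table. Contractile genes of the actin cytoskeleton, TAGLN and MYL9, were 2.05-fold and 2.00-fold higher per the authors' deposited table. The matricellular gene CCN2, printed as CTGF, was 2.22-fold and CCN1, printed as CYR61, 1.55-fold higher per the authors' deposited table. S100A4, a calcium-binding protein of motile cells, was 1.90-fold and AXL, a receptor kinase, 1.39-fold higher per the authors' deposited table. The 2 lower genes were COL1A1 at a log2 fold change of -0.40 and CALD1 at -0.20 per the authors' deposited table. CDH2 (N-cadherin), ACTA2, TNC, MMP2 and 19 further genes were in neither table. None of the list rose as far as VIM or ZEB1, and 7 of the 21 were higher by a log2 of 1 or more.

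Markers of fibroblasts and of endothelial cells and leukocytes gave few listed genes. Of 8 fibroblast markers 1 was listed (12.5%, beside 37.9% of all protein-coding genes), COL1A1, which was lower. DCN, LUM, PDGFRA, PDGFRB, THY1, FAP and COL1A2 were in neither table. Of 8 endothelial and leukocyte markers 1 was listed (12.5%), CD68, which was 3.51-fold higher per the authors' deposited table. Of 10 markers of colorectal epithelium 5 were listed: CDX2 and EPCAM were lower, and KRT8, KRT18 and KRT20 higher. CDX1, VIL1, CDH17, LGALS4 and GPA33 were in neither table. Without levels, the presence or absence of these markers in a group could not be checked, and their part in the changes of VIM, CDH1 and EPCAM was not tested.

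Partners of E-cadherin were more often lower than higher. Of 15 genes 13 were listed (86.7%, beside 37.9% of all protein-coding genes), 9 lower and 4 higher. Their median log2 fold change was -0.23, and over all listed genes 49.3% were lower. PLEKHA7, which ties junctions to microtubules, was 2.31-fold lower, close to CDH1 itself, and AJUBA, a LIM protein that also binds Snail-family factors, 1.70-fold lower per the authors' deposited table. LIMA1 was 1.45-fold and ARVCF, a p120-type catenin, 1.40-fold lower per the authors' deposited table. The catenin genes JUP (plakoglobin) and CTNND1 (p120) were 1.30-fold and 1.27-fold lower, while CTNNB1 (β-catenin) was 1.11-fold higher per the authors' deposited table. VCL (vinculin), which links junctions and focal adhesions to actin, was 1.42-fold higher and NECTIN2 1.26-fold higher per the authors' deposited table. CTNNA1 (α-catenin) was in neither table.

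Partners of EpCAM went both ways. Of 13 genes 7 were listed (53.8%, beside 37.9% of all protein-coding genes), 5 higher and 2 lower. Over all listed genes 50.7% were higher. Among the lower genes was CLDN7, given above, whose product claudin-7 binds EpCAM. CD9, a tetraspanin, was 1.61-fold, CD44, the hyaluronan receptor, 1.29-fold and FHL2, which binds the cleaved tail of EpCAM, 1.76-fold higher per the authors' deposited table. The γ-secretase subunit gene PSEN2 was 1.28-fold higher per the authors' deposited table. ADAM17 and ADAM10, which cleave EpCAM, were in neither table.

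Corepressors and other cofactors of ZEB1 and SNAI2, called corepressors here, were mostly slightly lower. Of 18 genes 13 were listed (72.2%, beside 37.9% of all protein-coding genes), 10 lower and 3 higher. Over all listed genes 49.3% were lower. The median log2 fold change of the list was -0.31, and none was past a log2 of 1. CTBP1, which binds ZEB1, was 1.41-fold lower and its paralog CTBP2 1.10-fold higher per the authors' deposited table. The 10 lower genes include YAP1, a Hippo effector that can turn ZEB1 into an activator, which was 1.75-fold lower per the authors' deposited table. LIMD1, a LIM protein related to AJUBA, was 1.42-fold lower and SIN3A 1.31-fold lower per the authors' deposited table. HDAC2 was 1.28-fold lower and HDAC1 1.22-fold higher per the authors' deposited table. The demethylase KDM1A (LSD1) and the methyltransferase EZH2 were 1.16-fold and 1.15-fold lower, and RCOR1 was 1.12-fold higher per the authors' deposited table.

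Genes of the pathways that induce the transition, called inducers here, were more often lower than higher. Of 22 ligands, receptors and transducers 12 were listed (54.5%, beside 37.9% of all protein-coding genes), 8 lower and 4 higher. Their median log2 fold change was -0.22, and over all listed genes 49.3% were lower. The 8 lower genes include an inhibitor, SMAD7, so the count is not one of inducers alone. The TGF-β ligand gene TGFB2 was 2.27-fold lower (q = 1.47e-03) and the receptor gene TGFBR2 2.08-fold lower (q = 7.90e-40) per the authors' deposited table. SMAD3 was 1.74-fold, the inhibitory SMAD7 1.49-fold and SMAD4 1.21-fold lower, while SMAD2 was 1.22-fold higher per the authors' deposited table. EGFR was 1.43-fold lower and HIF1A, the oxygen-regulated factor, 1.40-fold higher per the authors' deposited table. The Notch genes NOTCH1 and JAG1 were each 1.17-fold higher per the authors' deposited table. TGFB1, TGFBR1 and 8 further genes were in neither table. Without chromosomes 4, 7, 13 and 15, 5 inducers were lower and 4 higher.

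VIM was not alone among filament genes. Of 22 other intermediate filament and linker genes 15 were listed (68.2%, beside 37.9% of all protein-coding genes), 12 higher and 3 lower. Over all listed genes 50.7% were higher. The muscle filament gene DES (desmin) was 2.03-fold higher, the lamin gene LMNA 1.99-fold, PRPH (peripherin) 1.91-fold, the linker PLEC (plectin) 1.34-fold and NES (nestin) 1.23-fold higher per the authors' deposited table. Among keratins of stratified epithelium KRT14 and KRT17 rose further than VIM, with log2 fold changes of 5.94 and 3.59 per the authors' deposited table. KRT5 stood at 2.27. The q-values of KRT14, KRT17 and KRT5 were 1.51e-10, 4.33e-16 and 5.57e-04 per the authors' deposited table, far larger than the 9.77e-218 of VIM. KRT20, a keratin of the gut, was 4.23-fold higher per the authors' deposited table. The lens filament gene BFSP1 was 2.26-fold, KRT7 1.57-fold and LMNB1 1.28-fold lower per the authors' deposited table. Keratin genes have near-identical pseudogenes, and reads shared with these would make their values uncertain.

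The listed genes around each switch gene lay in both directions. Within 5 Mb of VIM 7 of 19 other listed genes were higher, with a median log2 fold change of -0.35 and a highest value of 1.03. Around ZEB1 9 of 16 were higher, with a median of 0.16 and a highest value of 0.59. Around SNAI2 1 of 6 was higher, at a log2 fold change of 0.49. Around CDH1 25 of 57 were higher, with a median of -0.17 and a lowest value of -5.97. Around EPCAM 6 of 14 were higher, with a median of -0.20 and a lowest value of -2.03. No listed neighbour of VIM, ZEB1 or SNAI2 within 5 Mb rose as far as the gene itself. Of all higher genes only 1.87%, 2.10% and 3.98% changed at least as much as VIM, ZEB1 and SNAI2. Of the 32 lower neighbours of CDH1 3 fell further than CDH1, and of the 8 of EPCAM 1 fell further than EPCAM. Among all lower genes 10.6% and 10.4% fell at least as far as CDH1 and EPCAM. On the whole of chromosomes 10, 8, 16 and 2, 52.3%, 53.6%, 53.7% and 53.5% of the other listed genes were higher. In GENCODE release 29, VIM and ZEB1 each overlap 2 genes on the opposite strand and CDH1 and EPCAM 1 each, among them VIM-AS1 and ZEB1-AS1. Neither of these was in the tables, and the sources used here do not say whether the counting used strand, so their reads cannot be told apart from those of VIM and ZEB1.

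**Figure D5:**
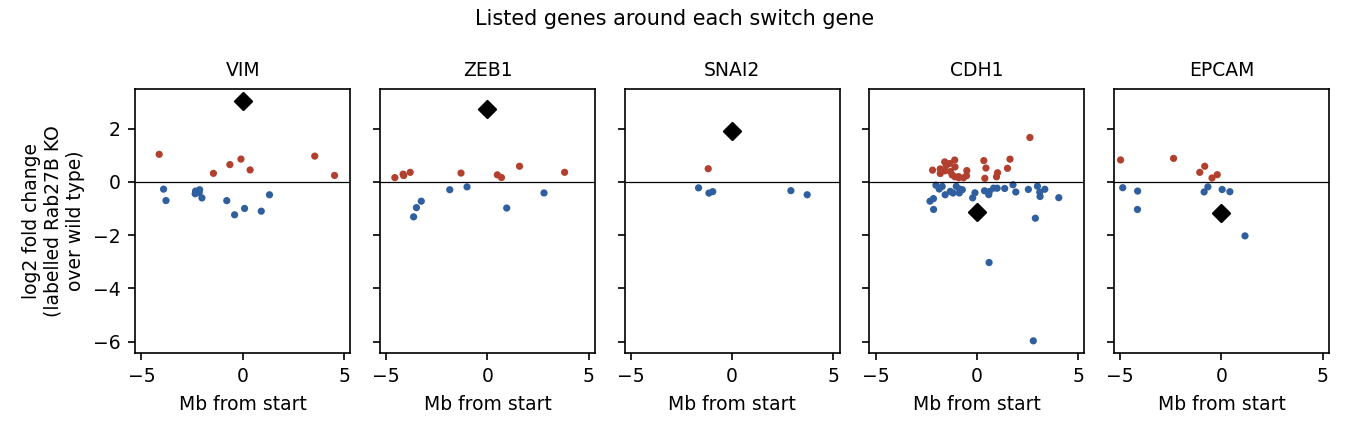
Log2 fold change (y axis, cultures labelled Rab27B KO over wild type) of the listed genes within 5 Mb of each switch gene, by the distance between starts (x axis, Mb). Black diamonds are the switch genes, red points higher genes and blue points lower genes. No neighbour of VIM, ZEB1 or SNAI2 comes near the height of the diamond, which few of all higher genes reach.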

How the data were processed

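RNA from 6 cultures was sequenced, 3 per genotype, grouped by their titles. The submitters' processing notes name HISAT, Bowtie2 and GRCh38, without their roles. The sources used here do not give how reads were counted, scaled and tested. Per the file headers, the authors deposited for each listed gene the log2 ratio of Rab27B KO to wild type and a q-value, and for higher genes also the linear ratio. The 2 tables hold 7681 genes, and 17 q-values are listed as 0. Depth and replicate spread are unknown.

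The design foresaw tests on values per sample, which did not apply, so no test was added and each q-value is the authors'. Folds of lower genes are 2 to the power of the absolute log2 value. Gene IDs were matched to RefSeq (GRCh38.p14, 7656 of 7681). The members and the 10 related lists and 3 marker lists were chosen with earlier results of these data known. The related lists hold 237 genes, 16 of them in more than 1 list. Genes named were the 5 members, RAB27B, every listed transition or epithelial factor and up to 4 genes per direction with the largest change in each other list; further genes of a list were chosen after their values were seen, for their roles. Some genes named by this rule are not reported here. Neighbours within 1 Mb are given as counts except CDH3. The microRNA search was added after the data were seen. Motif search and counting were tested on simulated data. Alternatives were a stricter q-value threshold of 0.01, a minimum log2 change of 1, matching by printed symbol, leaving out chromosomes 4, 7, 13 and 15, windows of 1 and 10 Mb and a 300-base promoter window. Python 3.11.15 and pandas 2.3.3 were used.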

Additional observations from a re-analysis of the deposited data

How the results depend on the processing

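The 5 switch genes kept their direction and their counts of 3 higher and 2 lower at a q-value below 0.01, at a log2 change of at least 1 and when matched by gene ID. No paired analysis was possible because the deposited tables hold only the authors' comparison, and for the same reason no culture could be left out in turn and no other normalization or filter on low values was run. At a log2 change of at least 1, which leaves fewer genes by construction, the other transition factors had 0 higher and 0 lower, the epithelial factors 2 higher, the epithelial adhesion and surface genes 1 higher and 10 lower, the mesenchymal effectors 7 higher and 0 lower, the E-cadherin partners 0 higher and 1 lower, the EpCAM partners 1 higher and 1 lower, the corepressors 0 and 0, the stability regulators 0 and 0, the intermediate filaments 5 higher and 1 lower, and the inducers 0 higher and 2 lower. At a q-value below 0.01 the other transition factors had 1 higher and 1 lower. Without chromosomes 4, 7, 13 and 15 they had 1 higher, the mesenchymal effectors had 1 lower and the inducers had 5 lower. Near SNAI2 the share of other listed genes that were higher moved with the window, from 0% of 1 gene within 1 Mb to 16.7% of 6 within 5 Mb and 52% of 25 within 10 Mb, where 2 genes rose further than SNAI2. Every other count of the lists stayed within 1.5 times its value under the alternatives run. In the 300-base windows ZEB1 had 4 E-box matches and VIM 0.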

Other observations

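Genes that set the stability of the Snail and ZEB proteins were listed in both directions. Of 19 kinase, ubiquitin ligase and deubiquitinase genes 8 were listed (42.1%, beside 37.9% of all protein-coding genes). Of these, 5 were higher and 3 lower, none past a log2 of 1, and over all listed genes 50.7% were higher. STUB1 (CHIP) and SIAH2, both ubiquitin ligases, were 1.42-fold and 1.38-fold higher per the authors' deposited table. MDM2, a ligase that also targets p53, was 1.18-fold, PAK1, a kinase of the actin cytoskeleton, 1.16-fold and CSNK1E 1.15-fold higher per the authors' deposited table. FBXL14, an F-box ligase of Snail-family proteins, was 1.27-fold lower with q = 6.40e-03, and USP10 1.10-fold lower per the authors' deposited table. ATM, the DNA damage kinase, was 1.69-fold lower per the authors' deposited table. GSK3A, GSK3B, FBXW7, BTRC and 7 further genes were in neither table.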
